A study of Gallus gallus with 14 samples.

Results

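The mitosis and spindle genes encode the kinases, cyclins, checkpoint proteins, motors and chromosome proteins that a cell uses to divide, and their mRNA was followed here in the retinal pigment epithelium (RPE) of chicken embryos. The RPE is the pigmented cell layer behind the neural retina. A list of 37 such genes was taken, and a gene was kept where the supplied probe-to-gene table gave its symbol alone to at least 1 probe set of the array. By this rule 34 of the 13009 genes with a probe set were found, in 70 probe sets. CCNB2, UBE2C and AURKA were not analysed here. Of the 34 genes, 31 lay above the limit for dim signal and were tested together with all other genes, 10206 in all. CENPF, NCAPG and MKI67 lay below it and are described separately.

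Total RNA of isolated RPE sheets was hybridised to Affymetrix chicken genome arrays. Embryonic day 7 (E7) had 4 arrays, E10 and E14 had 3 arrays each, and 4 were made at E18. The design text describes separate preparations, 1 for each array, with the RPE of 20 to 30 eyes combined in a preparation. The labels give neither a strain nor a sex, and no agent or genetic change is named for any age.

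During division, CDK1 with its cyclins starts mitosis, the spindle checkpoint holds the chromosomes until each is attached to microtubules, and the anaphase-promoting complex then releases them and ends the activity of the cyclins. In cycling cells most of these genes are transcribed mainly in the G2 phase and in mitosis, so their mRNA marks tissues with dividing cells. RPE cells divide in the early embryo and stop as the epithelium matures. In whole tissue, fewer dividing cells and less of these mRNAs per dividing cell cannot be told apart.

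Values below are normalised log2 signals of 1 probe set per gene, in replicate order, and a difference of 1 stands for a 2-fold change. The size of a difference depends on the constant of 16 that was added before taking logs. This matters most below a log2 signal of 6.2, the limit for dim signal, but it reaches above that limit. At E10 against E7, PLK1, with an E10 mean of 6.83, differed by -3.07 and -2.42 with constants of 1 and 64 instead. SMC2, with an E10 mean of 6.70, differed by -2.51 and -1.84. A gene is said to have risen, fallen or been called only where limma's adjusted p, taken over all 23063 tested probe sets, was under 0.05. The median deposited intensity ran from 83.5 to 145 per array, and the number of arrays per age limits the precision of every value. RPE markers were present: 13 of 13 RPE genes with a probe set lay above the limit, as did 10206 of all 13009 genes. The pigment genes TYR, TYRP1, DCT and PMEL had age means between 14.56 and 15.35. RPE65, TTR and STRA6 had 9.30, 8.93 and 8.76 at E7 and 15.02, 14.87 and 14.26 at E18. At E18 against E7, 5 of the 13 rose and 3 fell, where 21.6% and 26.7% of all genes did so. Of 5 melanocyte and neural crest genes 3 lay above the limit, and their courses differed. By age mean, SOX10 had 12.51, 11.29, 11.66 and 12.60, EDNRB 10.35, 12.67, 12.04 and 10.58, and PMP22 9.37, 8.72, 8.23 and 7.51.

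Some arrays stood apart from the others of their age. In E7 replicates 1 and 2 and E18 replicates 2 and 3 the ACTB signal of the 3' probe set over the 5' one, which reports on the state of the RNA and its labelling, was 1.18 to 1.30. It was 1.36 or more in the 10 others. These 4 arrays and E7 replicate 3 came without an instrument file, while the other 9 arrays had one. HBA1, an alpha globin gene, had signals of 14.88, 9.84, 9.67 and 14.83 in E18 replicates 1 to 4 and of 11.95, 12.01, 8.90 and 7.59 in E7 replicates 1 to 4. Without these 4 arrays no call of a fall or a rise was lost except those of CDK1, CCNA2, PBK, DLGAP5, RACGAP1, ECT2, ANLN and SMC2 that are given with these genes.

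Most of the 31 tested mitosis and spindle genes had a higher signal at E7 than from E10 onward. KIF4B, DLGAP5 and, in some arrays, ECT2 were high again at E18. Over the 4 ages 28 of the 31 genes changed by limma's moderated F test, where 50.9% of all genes did. The 3 without a call were the checkpoint kinase gene TTK (adjusted p = 0.13), the kinetochore motor gene CENPE (adjusted p = 0.787) and KIF20A, a kinesin of the central spindle (adjusted p = 0.278). The age mean was highest at E7 in 28 genes, and at E18 in KIF4B, DLGAP5 and KIF20A. The lowest age mean was at E7 in 1 gene, at E10 in 10, at E14 in 8 and at E18 in 12. The ages of the highest and lowest means were not counted over all genes.

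**Figure D1:**
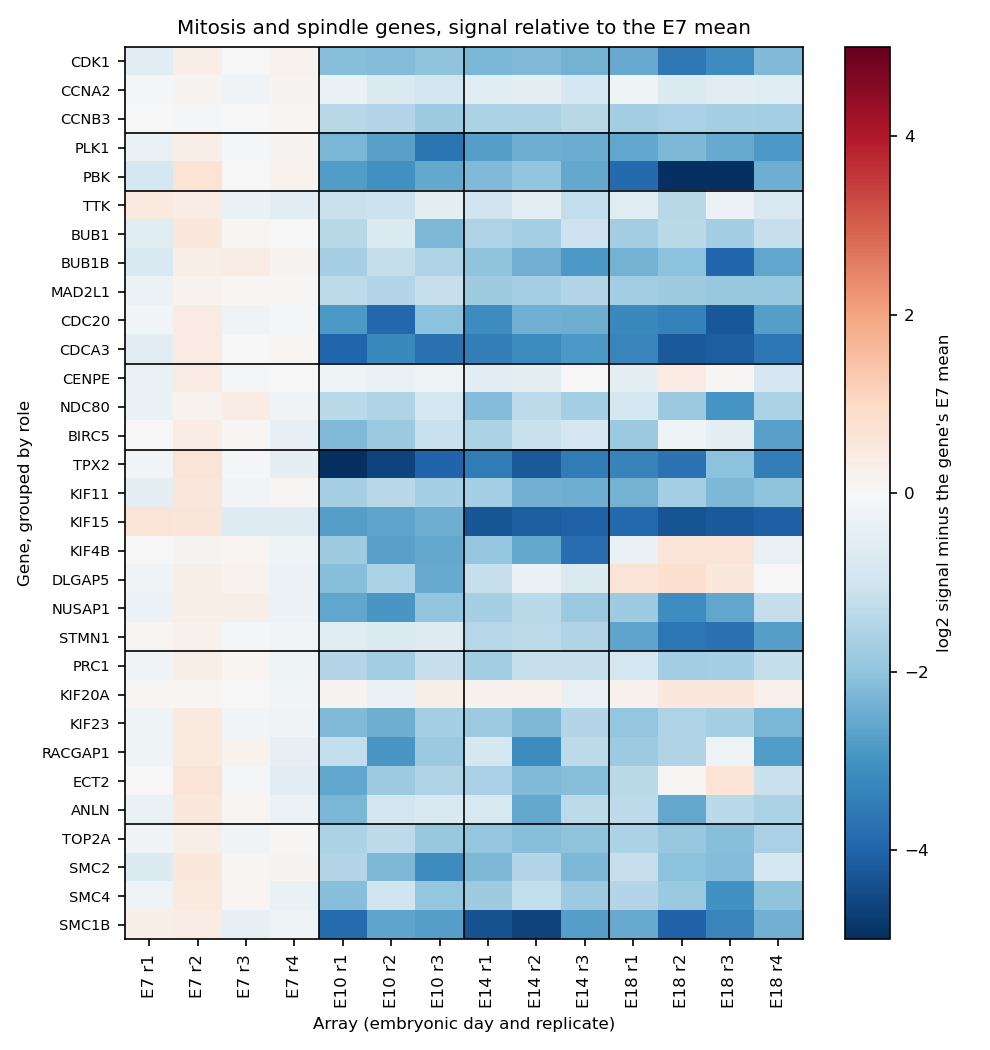
Normalised log2 signal of 31 mitosis and spindle genes (down the page, grouped by role) in 14 arrays (across, by age and replicate), as the difference from each gene's mean at E7. Blue marks values below the E7 mean and red values above it, and differences beyond the scale take its end colour. The blue starts at E10 in 28 genes whose 3 E10 arrays all lie below all 4 E7 arrays, and it turns back toward red at E18 in KIF4B and DLGAP5.

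The median signal of the 31 genes was 8.31, 8.91, 8.51 and 8.60 in the E7 arrays, 6.79, 6.63 and 6.71 at E10, 6.68, 6.84 and 6.85 at E14 and 6.62, 6.94, 6.88 and 6.90 at E18. The E7 arrays stood clear of the later ages, and the E10, E14 and E18 arrays overlapped. By age this was 8.58 ± 0.247 (SD, n = 4), 6.71 ± 0.0801 (SD, n = 3), 6.79 ± 0.0953 (SD, n = 3) and 6.84 ± 0.144 (SD, n = 4). E7 replicate 2 was the highest of the E7 arrays in 26 of the 31 genes, against 20.8% of all genes, and E7 replicate 1 was the lowest in 15. E7 replicate 4, the E7 array with an instrument file, lay above every E10 array in 29 of the 31 genes, where 36.2% of all genes did so.

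**Figure D2:**
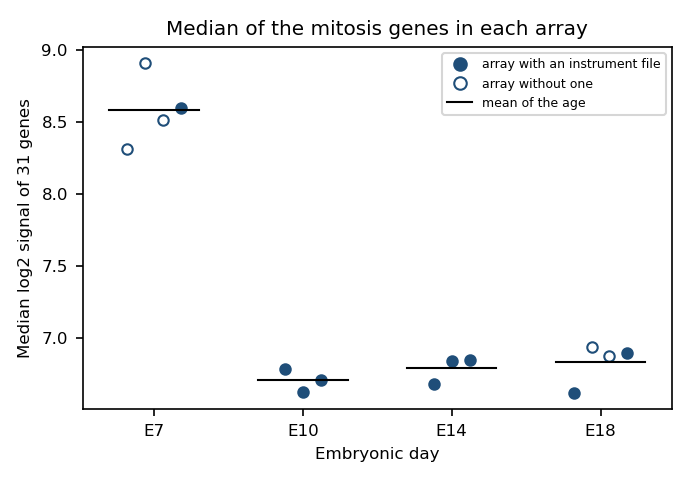
Median normalised log2 signal of the 31 mitosis and spindle genes in each array, by embryonic day. Filled points are arrays with an instrument file, open points are arrays without one and bars are the means of each age. The 4 E7 arrays lie between 8.31 and 8.91, and the 10 later arrays between 6.62 and 6.94.

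The comparison of E10 with E7 covers the first interval. Of the 31 genes 26 fell and none rose, where 8.08% of all genes fell and 8.78% rose. The list was chosen with earlier results of these data known, so its counts beside those of all genes are descriptive throughout. Of 71 other tested mitosis and spindle genes, 15 fell and 2 rose, with a median of -0.29. The median difference was -1.72 for the 31 genes and -0.01 for all genes. The falls ran from 1.57-fold to 24.3-fold with a median of 4.13-fold, and 14 genes fell at least 4-fold. Falls of at least 4-fold were not counted over all genes, and their number depends on the added constant. With 64 added, KIF4B, DLGAP5, NUSAP1, KIF23, RACGAP1 and SMC2 differed by less than 4-fold (-1.95 to -1.33). All 3 E10 arrays lay below all 4 E7 arrays in 28 genes and above them in 0, where 15.1% and 13.8% of all genes did so. Since the filter on dim signal used the mean over all arrays, a gene could pass it through its signal at E7 alone. With no filter, 26 of all 34 genes fell and none rose, where 5.38% and 6.1% of all genes did so. For E14 against E10 the counts with no filter were 1 lower and 1 higher (1.79% and 3.21% of all genes), for E18 against E14 2 and 3 (10.6% and 6.96%), for E18 against E7 25 and 0 (20% and 16.3%), and for E18 against E10 5 and 4 (15.4% and 13.2%).

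The comparison of E18 with E7 spans the whole series. Of the 31 genes 25 fell and none rose, where 26.7% of all genes fell and 21.6% rose, and the median difference was -1.82 against -0.05 for all genes. These falls ran from 1.44-fold to 17.5-fold. Both comparisons share the E7 arrays. In 24 of the 25 genes at least 50% of the difference between E18 and E7, on the log2 scale, was present at E10, and the median share was 91.1%. The exception was STMN1, with 20.4%. The share was not computed over all genes. At E10, 10 of the 31 genes had an age mean under the limit for dim signal, where the added constant affects the share. Among the 9 arrays with an instrument file, where E7 had 1 array that was assumed to vary like those of the other ages, 19 genes fell at E10 and 15 at E18, where 5.94% and 20% of all genes did so. CCNA2, BUB1, NDC80, PRC1, RACGAP1 and SMC4 lost both calls there, BIRC5 and ECT2 that at E10, and NUSAP1, ANLN, SMC2 and SMC1B that at E18, while STMN1 gained one at E10 (-0.49). Among the 5 arrays without a file, 23 fell at E18 and 1, KIF4B, rose (0.55), where 23.5% and 17.4% of all genes did so; that comparison was chosen after seeing the data.

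CDK1 and the mitotic cyclins fell in the first interval. CDK1, the kinase whose activation starts mitosis, had signals of 10.59, 11.45, 11.09 and 11.29 at E7, 8.97, 8.94 and 9.07 at E10, 8.83, 8.88 and 8.74 at E14 and 8.59, 7.52, 7.97 and 8.88 at E18. Each E7 array lay well above every later one, and the E18 arrays spread widely, with replicates 2 and 3 below replicates 1 and 4. CDK1 was 4.32-fold lower at E10 than at E7 (-2.11 ± 0.26 SE, adjusted p = 4.845e-05) and 7.28-fold lower at E18 (-2.86 ± 0.24 SE, adjusted p = 7.958e-08).

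CCNB3, a B-type cyclin, had 8.98, 8.91, 9.03 and 9.10 at E7, 7.63, 7.55 and 7.22 at E10, 7.42, 7.43 and 7.62 at E14 and 7.27, 7.37, 7.33 and 7.30 at E18. The groups at E7 and at the later ages did not overlap, and CCNB3 was 2.90-fold lower at E10 (-1.54 ± 0.16 SE). CCNA2, the cyclin that acts in S phase and into early mitosis, had 8.83, 9.06, 8.73 and 9.05 at E7, 8.59, 8.21 and 8.01 at E10, 8.33, 8.42 and 8.04 at E14 and 8.70, 8.24, 8.34 and 8.30 at E18. Its groups lay close together, with a fall of 1.57-fold at E10 (-0.65 ± 0.18 SE, adjusted p = 0.0238) and of 1.44-fold at E18 (-0.52 ± 0.16 SE, adjusted p = 0.01825). The first call ended without E7 replicate 2 (-0.60), E10 replicate 2 (-0.62) or E10 replicate 3 (-0.52), and the second without E7 replicate 2 (-0.48) or E18 replicate 2 (-0.47). Both ended without the 4 arrays that stood apart (-0.62 and -0.39).

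The 2 tested genes grouped as mitotic kinases, PLK1 and PBK, fell at E10 and at E18 against E7. The checkpoint kinase genes BUB1 and TTK are given with the checkpoint genes. PLK1, the Polo kinase that acts at centrosomes, kinetochores and the midbody, had 9.35, 10.02, 9.60 and 9.82 at E7, 7.43, 7.00 and 6.06 at E10, 6.96, 7.26 and 7.23 at E14 and 7.09, 7.47, 7.19 and 6.83 at E18. No later array came near the E7 arrays, and the later ages overlapped. PLK1 was 7.31-fold lower at E10 (-2.87 ± 0.28 SE, adjusted p = 5.262e-06) and 5.87-fold lower at E18 (-2.55 ± 0.26 SE).

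PBK, a mitotic kinase gene also known as TOPK, had 8.70, 10.25, 9.59 and 9.77 at E7, 6.79, 6.56 and 7.04 at E10, 7.39, 7.60 and 7.03 at E14 and 5.70, 4.54, 4.46 and 7.14 at E18. It was low at E10 and E14 and lower still in 3 of the 4 E18 arrays. PBK fell 6.88-fold at E10 against E7 (-2.78 ± 0.51 SE) and 17.3-fold at E18 against E7 (-4.12 ± 0.48 SE, and -5.05 and -3.05 with constants of 1 and 64 added). Against E14 it fell by 1.88 ± 0.51 (SE, adjusted p = 0.01653). That call ended without E14 replicate 1 (-1.85), E14 replicate 2 (-1.75), E18 replicate 2 (-1.57) or E18 replicate 3 (-1.54), and the difference was -0.92 with no call without the 4 arrays that stood apart.

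**Figure D3:**
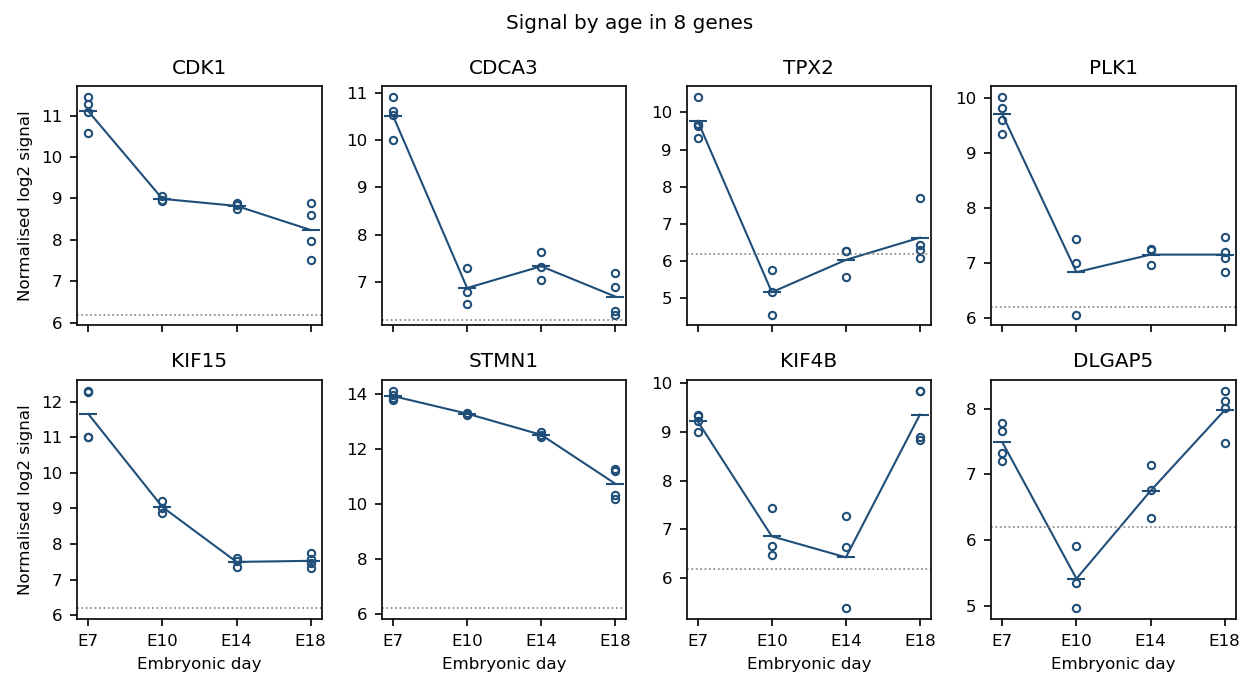
Normalised log2 signal by embryonic day in 8 mitosis and spindle genes. Points are arrays, short bars are age means joined by lines, and the dotted line is the limit for dim signal at 6.2. CDK1, CDCA3, TPX2, PLK1 and KIF15 drop between E7 and E10, STMN1 has its steepest step between E14 and E18, and KIF4B and DLGAP5 are high again at E18.

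Of the 6 tested genes grouped with the spindle checkpoint and the control of the anaphase-promoting complex, 5 fell at E10 against E7. The same number fell at E18 against E7, where 8.08% and 26.7% of all genes fell in these comparisons. Genes for subunits of the complex itself are not in this group and were counted with the other mitosis and spindle genes. CDCA3, which promotes entry into mitosis through the degradation of WEE1, had 9.99, 10.91, 10.52 and 10.62 at E7, 6.53, 7.29 and 6.78 at E10, 7.05, 7.32 and 7.63 at E14 and 7.19, 6.31, 6.38 and 6.90 at E18. The gap between the lowest E7 array and the highest later array was wide, and CDCA3 was 12.5-fold lower at E10 (-3.64 ± 0.27 SE, adjusted p = 3.247e-07). CDC20, the activator of the anaphase-promoting complex, had 8.57, 9.10, 8.51 and 8.60 at E7, 5.81, 4.77 and 6.63 at E10, 5.56, 6.29 and 6.26 at E14 and 5.45, 5.32, 4.46 and 5.95 at E18. Most later arrays lay below the limit for dim signal. The fall at E10 was 7.76-fold (-2.96 ± 0.43 SE, and -3.52 and -2.14 with constants of 1 and 64).

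MAD2L1, the checkpoint protein that binds CDC20, had 10.12, 10.60, 10.52 and 10.50 at E7, 9.14, 8.98 and 9.28 at E10, 8.65, 8.76 and 8.95 at E14 and 8.69, 8.67, 8.52 and 8.54 at E18. Replicates were close at each age, and MAD2L1 fell 2.47-fold at E10 (-1.30 ± 0.14 SE) and 3.55-fold at E18 (-1.83 ± 0.13 SE, adjusted p = 8.368e-09) against E7. It also fell at E18 against E10 (-0.53 ± 0.14 SE, adjusted p = 0.007322), a call that ended with each array centred on its median (-0.52).

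BUB1B, which encodes the checkpoint protein BUBR1, had 7.76, 8.82, 8.90 and 8.65 at E7, 6.87, 7.34 and 7.02 at E10, 6.52, 6.13 and 5.65 at E14 and 6.16, 6.46, 4.56 and 5.94 at E18. The E14 and E18 arrays lay below the E10 arrays. BUB1B fell by 1.46 ± 0.41 (SE, adjusted p = 0.02836) at E10, and by 1.30 ± 0.41 (SE, adjusted p = 0.02349) at E18 against E10. The first call ended when E7 replicates 2, 3 or 4 or any E10 array was left out in turn, with differences of -1.59 to -1.34. The second ended without E10 replicate 2 (-1.17), E10 replicate 3 (-1.33) or E18 replicate 3 (-0.89).

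BUB1, the checkpoint kinase at the kinetochore, had age means of 8.17 ± 0.45 at E7 (SD, n = 4), 6.72 ± 0.75 at E10 (SD, n = 3), 6.74 ± 0.34 at E14 (SD, n = 3) and 6.68 ± 0.28 at E18 (SD, n = 4). It fell 2.73-fold at E10 (-1.45 ± 0.34 SE), a call that ended without E10 replicate 3 (-1.05). TTK, the kinase also called MPS1, had 7.43, 7.34, 6.63 and 6.43 at E7, 5.83, 5.89 and 6.50 at E10, 5.97, 6.50 and 5.71 at E14 and 6.35, 5.57, 6.66 and 6.15 at E18. The E7 and later arrays of TTK overlapped, and its difference of -0.88 ± 0.37 at E10 was not called (adjusted p = 0.15).

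Among 3 tested kinetochore and centromere genes, 2 fell at E10 and 2 at E18. BIRC5, the survivin subunit of the chromosomal passenger complex, had 7.80, 8.20, 7.86 and 7.42 at E7, 5.62, 5.97 and 6.71 at E10, 6.24, 6.72 and 6.98 at E14 and 5.98, 7.62, 7.35 and 5.11 at E18. E18 replicate 2 lay within the E7 range and replicate 3 just below it, while the other 2 E18 arrays were far below. BIRC5 fell by 1.72 ± 0.50 at E10 (SE, adjusted p = 0.03122) and by 1.31 ± 0.46 at E18 (SE, adjusted p = 0.03167). The first call ended without E7 replicates 1 (-1.73), 2 (-1.59) or 3 (-1.71) or E10 replicates 1 (-1.48) or 2 (-1.65), and the second without E7 replicates 1 (-1.31), 2 (-1.18) or 3 (-1.29) or E18 replicates 1 (-1.13) or 4 (-0.84). With the instrument file as a term in the fit, the difference at E10 was -0.71 with no call.

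NDC80, which anchors microtubules at the kinetochore, had 7.79, 8.32, 8.50 and 7.95 at E7, 6.80, 6.63 and 7.26 at E10, 5.98, 6.84 and 6.43 at E14 and 7.26, 6.28, 5.20 and 6.54 at E18. All later arrays lay below the E7 arrays. Its difference of -1.24 ± 0.39 at E10 sat at the threshold (adjusted p = 0.04996), and the call ended when any array except E18 replicates 1 and 3 was left out (-1.42 to -1.11, adjusted p up to 0.1681). At E18 the fall of 1.82 ± 0.36 was called (adjusted p = 0.0007032). CENPE, the kinetochore kinesin, had age means of 6.82, 6.53, 6.49 and 6.61 at E7, E10, E14 and E18, with overlapping arrays throughout.

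The spindle motors and microtubule factors included the deepest fall and also most of the later changes. TPX2, which activates Aurora A and nucleates spindle microtubules near chromatin, had 9.64, 10.42, 9.69 and 9.32 at E7, 4.56, 5.16 and 5.77 at E10, 6.27, 5.56 and 6.26 at E14 and 6.43, 6.08, 7.71 and 6.31 at E18. All E10 arrays lay below the limit for dim signal. TPX2 was 24.3-fold lower at E10 (-4.60 ± 0.40 SE, adjusted p = 1.737e-06, and -5.49 and -3.44 with constants of 1 and 64). At E18 it was 8.79-fold lower than at E7 (-3.14 ± 0.37 SE) and higher than at E10 (1.47 ± 0.40 SE, adjusted p = 0.009777). The rise against E10 ended without E10 replicate 1 (1.16), within the arrays with an instrument file (1.21) and in the mean over the TPX2 probe sets (0.45).

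KIF15, a kinesin that helps to keep the spindle bipolar, had 12.31, 12.26, 11.01 and 11.02 at E7, 8.88, 9.02 and 9.21 at E10, 7.37, 7.52 and 7.60 at E14 and 7.75, 7.32, 7.47 and 7.57 at E18. It stepped down in each of the first 2 intervals, and the E7 arrays fell into a higher and a lower pair. KIF15 was 6.13-fold lower at E10 than at E7 (-2.62 ± 0.28 SE), 2.91-fold lower at E14 than at E10 (-1.54 ± 0.30 SE, adjusted p = 0.005095) and 17.5-fold lower at E18 than at E7 (-4.13 ± 0.26 SE, adjusted p = 2.548e-09). Its second tested probe set gave the same calls, with age means of 10.09, 7.60, 5.84 and 6.15.

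KIF11, the Eg5 motor that pushes the spindle poles apart, had 8.54, 9.54, 8.84 and 9.06 at E7, 7.33, 7.60 and 7.29 at E10, 7.31, 6.58 and 6.56 at E14 and 6.62, 7.28, 6.74 and 6.99 at E18. The E7 arrays were again apart from the rest, with falls of 3.01-fold at E10 and 4.24-fold at E18. NUSAP1, which binds spindle microtubules, had 7.39, 8.02, 7.99 and 7.40 at E7, 5.09, 4.80 and 5.73 at E10, 6.03, 6.37 and 5.86 at E14 and 5.93, 4.59, 5.12 and 6.50 at E18. Most of its later values lay under the limit for dim signal, and the fitted falls were 5.63-fold at E10 and 4.48-fold at E18.

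STMN1, the microtubule-destabilising protein stathmin, kept another schedule. Its signals were 13.96, 14.12, 13.85 and 13.77 at E7, 13.32, 13.23 and 13.28 at E10, 12.51, 12.61 and 12.42 at E14 and 11.27, 10.32, 10.17 and 11.18 at E18. No 2 neighbouring ages overlapped. The differences were -0.65 ± 0.21 at E10 against E7 (adjusted p = 0.05084), -0.76 ± 0.22 at E14 against E10 (adjusted p = 0.05432) and -1.78 ± 0.21 at E18 against E14 (adjusted p = 1.319e-05), and STMN1 was 9.12-fold lower at E18 than at E7 (adjusted p = 1.519e-09). The first interval was called without E7 replicate 4 (-0.70) or any single E18 array (-0.65), and the second without any single E18 array (-0.76). A second STMN1 probe set gave the same calls (13.61, 12.90, 12.24 and 10.43).

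Of the 6 tested genes of the central spindle and cytokinesis, 4 fell at E10 and 4 at E18. KIF23, a motor subunit of the centralspindlin complex, had 8.21, 8.89, 8.28 and 8.25 at E7, 6.20, 5.98 and 6.72 at E10, 6.61, 6.17 and 6.95 at E14 and 6.47, 6.85, 6.75 and 6.14 at E18. PRC1, which bundles the microtubules of the central spindle, had 8.0, 8.45, 8.27 and 7.95 at E7, 6.72, 6.42 and 7.03 at E10, 6.45, 7.00 and 7.03 at E14 and 7.28, 6.44, 6.49 and 6.99 at E18. In both genes the E7 arrays were separate and the 3 later ages overlapped. KIF23 was 4.31-fold lower at E10 (-2.11 ± 0.29 SE, adjusted p = 0.0001326) and PRC1 2.73-fold lower (-1.45 ± 0.27 SE, adjusted p = 0.001861).

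RACGAP1, the partner of KIF23 in centralspindlin, had 7.59, 8.29, 7.98 and 7.40 at E7, 6.58, 4.91 and 5.94 at E10, 6.95, 4.65 and 6.52 at E14 and 6.01, 6.30, 7.58 and 5.02 at E18. Its later values were widely spread. RACGAP1 fell by 2.00 ± 0.60 at E10 (SE, adjusted p = 0.03859), a call that ended without E7 replicates 1 (-2.08), 2 (-1.85) or 3 (-1.95) or E10 replicates 2 (-1.55) or 3 (-2.07). At E18 it fell by 1.59 ± 0.56 (SE, adjusted p = 0.03166), a call that ended without E7 replicates 2 (-1.43) or 3 (-1.53) or E18 replicates 1 (-1.51), 2 (-1.61) or 4 (-1.19). Without the 4 arrays that stood apart the difference at E10 was -1.88 with no call (adjusted p = 0.09679). With the instrument file as a term in the fit, the differences were -1.22 at E10 and -1.33 at E18, neither called.

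ANLN, the actin-binding protein anillin of the contractile ring, had 7.15, 8.02, 7.56 and 7.18 at E7, 5.21, 6.58 and 6.71 at E10, 6.68, 4.93 and 6.18 at E14 and 6.16, 4.91, 6.14 and 5.91 at E18. Its arrays at E7 lay above all later ones. The difference of -1.31 ± 0.48 at E10 was not called (adjusted p = 0.09308), while the fall of 1.70 ± 0.45 at E18 was (adjusted p = 0.005972), and a second ANLN probe set (7.76, 5.70, 5.78 and 5.40) was called lower at both ages. The call at E18 ended without the 4 arrays that stood apart (-1.33, adjusted p = 0.1261).

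The 4 tested chromosome structure genes fell at E10 against E7, and also at E18 against E7. TOP2A, the topoisomerase that untangles sister DNA molecules, had 9.13, 9.62, 9.13 and 9.36 at E7, 7.72, 7.99 and 7.41 at E10, 7.36, 7.19 and 7.28 at E14 and 7.74, 7.41, 7.20 and 7.70 at E18. No later array reached the E7 range, and TOP2A was 3.04-fold lower at E10 (-1.61 ± 0.20 SE, adjusted p = 5.144e-05). A second TOP2A probe set had age means of 8.51, 5.18, 5.13 and 5.61. The condensin ATPase genes SMC2 and SMC4 fell 4.90-fold and 3.19-fold at E10. SMC2 had 8.31, 9.52, 9.03 and 9.11 at E7, 7.52, 6.75 and 5.84 at E10, 6.75, 7.54 and 6.73 at E14 and 7.84, 6.94, 6.82 and 8.10 at E18, and SMC4 had age means of 8.09, 6.41, 6.48 and 6.0. In both genes every later array lay below every E7 array. At E18 against E7 the fall of SMC2 by 1.57 ± 0.38 ended without the 4 arrays that stood apart (-1.10, adjusted p = 0.07722). Within the arrays with an instrument file the E18 falls of SMC2 (-1.14), SMC4 (-1.40) and SMC1B (-2.20) were not called.

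SMC1B encodes a cohesin subunit known in mammals from meiosis. It had 9.12, 9.18, 8.42 and 8.56 at E7, 4.96, 6.17 and 6.06 at E10, 4.46, 4.20 and 6.05 at E14 and 6.30, 4.78, 5.50 and 6.42 at E18. Every E7 array was well above the limit for dim signal, and most later arrays were below it. SMC1B was 8.52-fold lower at E10 (-3.09 ± 0.50 SE, adjusted p = 0.0005617, and -3.60 and -2.28 with constants of 1 and 64) and 8.39-fold lower at E18 (-3.07 ± 0.46 SE).

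The 3 genes below the limit were fitted with no filter on dim signal. MKI67, which encodes the proliferation antigen Ki-67, had 7.95, 8.54, 8.85 and 8.78 at E7, 4.86, 4.17 and 5.89 at E10, 5.76, 6.35 and 5.86 at E14 and 5.53, 4.25, 4.28 and 4.71 at E18. It was well above the limit at E7 and below it in 9 of the 10 later arrays, and 11.8-fold lower at E10 (-3.56 ± 0.45 SE, adjusted p = 6.33e-05). NCAPG, a condensin subunit, had 7.22, 7.21, 7.13 and 7.08 at E7, 4.84, 4.54 and 5.63 at E10, 4.51, 4.36 and 6.23 at E14 and 6.53, 6.82, 5.94 and 5.18 at E18. No later array reached its E7 range, and the difference of -2.16 ± 0.49 at E10 was called (adjusted p = 0.01079), while that of -1.04 at E18 against E7 was not (adjusted p = 0.1152). CENPF, a kinetochore protein gene, stayed between 4.71 and 6.84 in all arrays in its brightest probe set, which had no call (adjusted p = 0.6503 at E10 against E7). Another dim CENPF probe set had age means of 6.35, 5.44, 5.22 and 4.71, a difference of -1.64 at E18 against E7. The remaining CENPF probe sets differed by -0.29 to 0.04 there.

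After E10 the calls were few, lay in both directions and came at shares near or below those of all genes. For E14 against E10, 1 gene fell (KIF15) and 1 rose (DLGAP5), where 2.79% and 4.65% of all genes did so. For E18 against E14, 2 fell (PBK and STMN1) and 3 rose (KIF4B, DLGAP5 and ECT2), where 15.1% and 9.79% of all genes did so. For E18 against E10, 5 fell (CDK1, BUB1B, MAD2L1, KIF15 and STMN1) and 4 rose (TPX2, KIF4B, DLGAP5 and ECT2), where 21% and 17.7% of all genes did so, and the median difference was 0.02 against -0.04 for all genes. The comparisons with E10 share its 3 arrays, and those with E18 its 4 arrays. In 18 of the 31 genes a fall at E10 was followed by no call for E18 against E10, a pattern not counted over all genes. CDK1 fell by 0.75 ± 0.26 at E18 against E10 (SE, adjusted p = 0.03548), and that call ended without E10 replicates 1 (-0.77), 2 (-0.78) or 3 (-0.71) or E18 replicates 2 (-0.51) or 3 (-0.66), and was -0.26 with no call without the 4 arrays that stood apart or within the arrays with an instrument file.

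**Figure D4:**
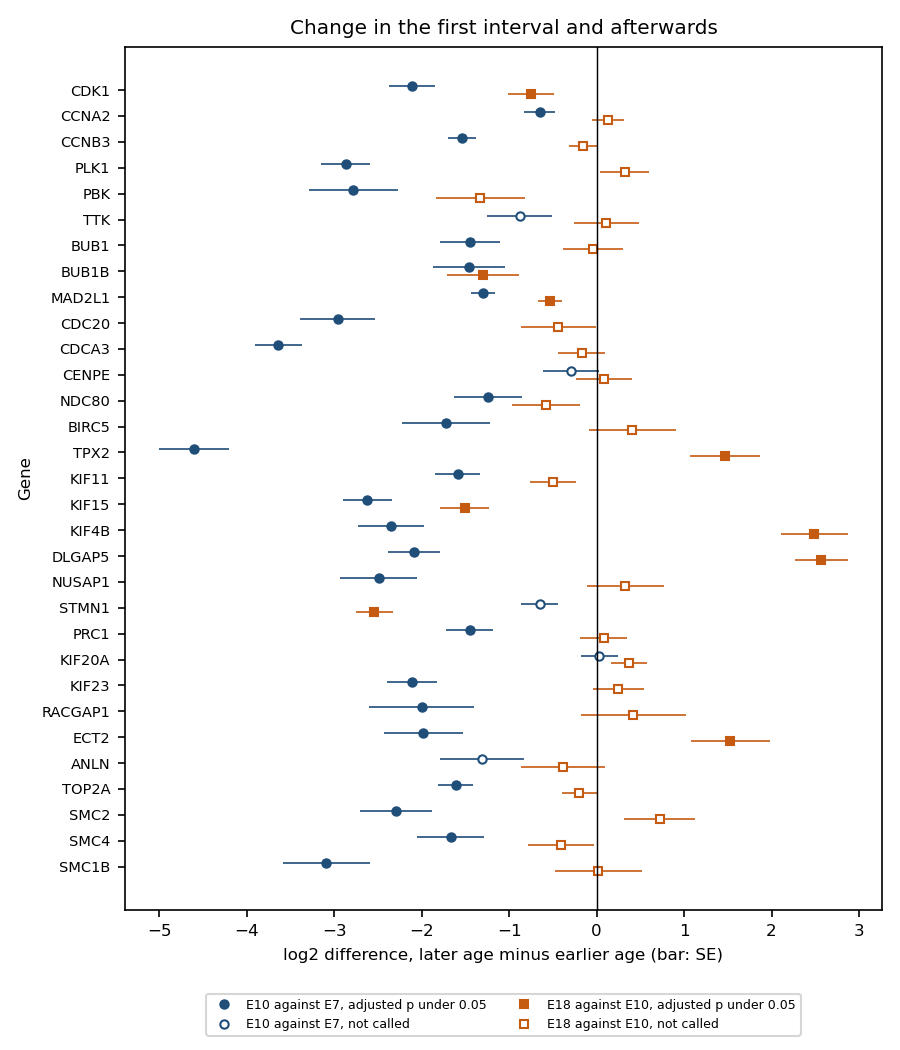
Log2 difference between ages (later minus earlier, horizontal axis) with its SE for 31 mitosis and spindle genes (down the page), for E10 against E7 (blue circles) and E18 against E10 (orange squares). Filled symbols passed an adjusted p of 0.05. In the first interval 26 filled symbols lie to the left of 0, and for E18 against E10 there are 5 filled squares to the left and 4 to the right.

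KIF4B and DLGAP5 were low at E10 and high again at E18. KIF4B is a chromokinesin gene for which the supplied gene table lists KIF4 and KIF4A as synonyms. It had 9.21, 9.34, 9.32 and 8.99 at E7, 7.43, 6.48 and 6.67 at E10, 7.27, 6.64 and 5.39 at E14 and 8.89, 9.84, 9.84 and 8.83 at E18. The E18 arrays lay on both sides of the E7 arrays and above all E10 and E14 arrays. KIF4B was 7.56-fold higher at E18 than at E14 (2.92 ± 0.38 SE, adjusted p = 4.113e-05) and 5.63-fold higher than at E10 (2.49 ± 0.38 SE, adjusted p = 8.375e-05), and its difference from E7 was 0.14 ± 0.35 (adjusted p = 0.7897).

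DLGAP5, also called HURP, stabilises spindle microtubules near the chromosomes. Its signals were 7.33, 7.78, 7.67 and 7.20 at E7, 5.35, 5.91 and 4.96 at E10, 6.34, 7.15 and 6.76 at E14 and 8.12, 8.28, 8.02 and 7.48 at E18. All E14 arrays lay above all E10 arrays, and all E18 arrays above all E14 arrays. DLGAP5 rose 2.53-fold at E14 against E10 (1.34 ± 0.32 SE, adjusted p = 0.01895) and 2.34-fold at E18 against E14 (1.23 ± 0.30 SE, adjusted p = 0.00777), and was 5.93-fold higher at E18 than at E10 (2.57 ± 0.30 SE, adjusted p = 5.25e-06). The first of these calls ended without E10 replicates 1 (1.31) or 3 (1.12) or E14 replicates 2 (1.14) or 3 (1.33), and the second without E14 replicate 1 (1.02) or without the 4 arrays that stood apart (1.05, adjusted p = 0.09799).

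ECT2, the guanine nucleotide exchange factor that starts cleavage, had 7.84, 8.50, 7.74 and 7.30 at E7, 5.25, 6.02 and 6.32 at E10, 6.22, 5.62 and 5.73 at E14 and 6.48, 7.89, 8.52 and 6.71 at E18. E18 replicate 2 lay within the E7 range and replicate 3 just above it, while replicates 1 and 4 lay below it. ECT2 fell by 1.98 ± 0.45 at E10 against E7 (SE, adjusted p = 0.008061). That call ended without E10 replicate 1 (-1.67) or with the instrument file as a term in the fit (-1.06). ECT2 rose by 1.53 ± 0.45 at E18 against E10 (SE, adjusted p = 0.01589), or 0.73 with no call without the 4 arrays that stood apart, and the call also ended without E10 replicate 1 (1.23) or E18 replicate 3 (1.16). The rise of 1.54 ± 0.45 against E14 (SE, adjusted p = 0.02432) ended without E14 replicates 2 (1.42) or 3 (1.48) or E18 replicates 2 (1.38) or 3 (1.17). Without the 4 arrays that stood apart, and within the arrays with an instrument file, it was 0.74 with no call.

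KIF20A, which carries the passenger complex to the central spindle, had 7.67, 7.68, 7.62 and 7.46 at E7, 7.74, 7.27 and 7.90 at E10, 7.81, 7.84 and 7.22 at E14 and 7.84, 8.15, 8.14 and 7.88 at E18. The first 3 ages overlapped, and no comparison was called (adjusted p from 0.1219 to 0.9863).

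The probe sets of a gene did not always follow each other. Of the 43 tested probe sets of the 31 genes, 34 fell at E10 against E7 and none rose, where 5.58% and 6.84% of all tested probe sets did so. Both DLGAP5 probe sets were high again at E18, the second with age means of 7.34, 5.01, 6.13 and 8.31 and a rise against E7. The second was not called for E14 against E10 (1.13), and its E14 replicate 2, at 5.06, lay among the E10 arrays. Of the 3 KIF4B probe sets a second one followed the first (8.64, 6.51, 6.69 and 9.22), while the third, with 6.97, 6.05, 6.0 and 6.13, had no call in any comparison. A dim ECT2 probe set, with 6.87, 6.41, 5.50 and 5.57, stayed low at E18. A dim KIF20A probe set had 7.65, 4.96, 5.14 and 5.11, a difference of -2.69 at E10 where the tested one had 0.03. The other 2 TPX2 probe sets, with 8.60, 5.96, 6.24 and 6.22 and with 7.93, 6.16, 5.57 and 5.77, had the fall at E10 but no call for E18 against E10. A second CDCA3 probe set, with 7.48, 6.10, 6.26 and 6.38, had no call. A dim CENPE probe set had 6.86, 5.29, 6.47 and 4.67, a difference of -2.18 at E18 against E7 where the tested one had -0.21. Dim probe sets of BUB1 (0.72), CCNA2 (0.43), RACGAP1 (0.36) and TTK (0.06) were higher at E18 than at E7, while the main ones were lower. By the manufacturer's convention the 7 of the 31 probe sets whose names end in _s_at can bind transcripts of more than 1 gene, which cannot be told apart here, and they stand for BUB1, CDC20, NUSAP1, STMN1, KIF23, RACGAP1 and SMC4.

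**Figure D5:**
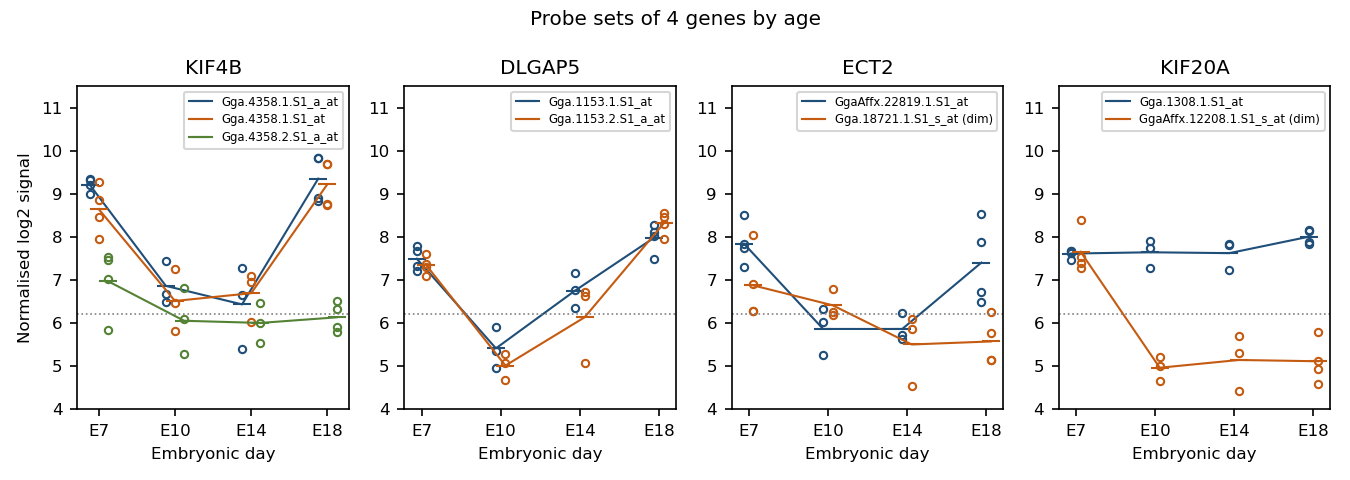
Normalised log2 signal by embryonic day for each probe set of KIF4B, DLGAP5, ECT2 and KIF20A. Points are arrays, bars joined by lines are age means, the dotted line is the limit for dim signal at 6.2, and probe sets below it on average are marked as dim. Both DLGAP5 probe sets and 2 of 3 KIF4B probe sets are high again at E18. The probe sets of KIF20A part after E7, and those of ECT2 lie farthest apart at E18.

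The E18 arrays also differed among themselves. In 21 of the 31 genes the 2 E18 arrays with an instrument file did not overlap the 2 without one. They lay above them in 12 genes (38.7%) and below them in 9 (29%). These shares were close to the 36.7% and 26.9% of all genes. CDK1, PBK, CDC20, CDCA3, NUSAP1, STMN1 and TOP2A were among those higher in replicates 1 and 4. KIF4B, ECT2, BIRC5, RACGAP1 and KIF23 were among those higher in replicates 2 and 3. The ACTB ratio and the HBA1 signal, given above, differed between the same arrays. Their part in this difference was not tested.

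Genes of the same processes outside the list were counted in the same fit. Of 114 other mitosis and spindle genes 91 had a probe set and 71 were tested, and at E10 against E7 15 fell and 2 rose (8.08% and 8.78% of all genes), with a median of -0.29. At E18 against E7 33 fell and 8 rose (26.7% and 21.6% of all genes). The 4 with the smallest F-test p were HMMR, WEE1, SPDL1 and BUB3. HMMR, a hyaluronan receptor that also binds spindle microtubules, had 8.85, 8.42, 8.45 and 8.47 at E7, 10.86 to 11.30 at E10, 11.46, 11.56 and 11.46 at E14 and 11.79, 12.21, 12.20 and 11.95 at E18. This probe set, whose name ends in _s_at and whose match to HMMR could not be checked without its sequence, ran opposite to most of the 31 genes. It was 5.68-fold higher at E10 (2.51 ± 0.14 SE, adjusted p = 9.164e-09). SPDL1, a kinetochore adaptor for dynein, peaked at E10, with age means of 10.64, 12.40, 11.54 and 9.62. WEE1, the kinase that holds CDK1 inactive, had age means of 10.72, 9.66, 9.38 and 8.72 and fell 2.09-fold at E10. BUB3, the checkpoint partner of BUB1, had 13.08, 12.84, 12.53 and 11.83, with a fall called for E18 against E14 (-0.71 ± 0.10 SE) and not for E10 against E7 (adjusted p = 0.1136).

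The 11 tested cohesin genes besides SMC1B had no call at E10 against E7, where they lay between -0.31 and 0.21, and 4 fell and 1 rose at E18 against E7, where 26.7% and 21.6% of all genes did so. STAG3, SMC3, MAU2 and SMC5, the members with the smallest F-test p, fell by 0.80, 0.57, 0.54 and 0.60 at E18 against E7. Of 34 tested G1 cyclins, cell cycle inhibitors and pocket protein genes, 3 fell and 2 rose at E10 against E7, and 9 fell and 4 rose at E18 against E7. The falls were near the shares of all genes (8.08% and 26.7%), and the rises were below theirs (8.78% and 21.6%). CDKN1B, the p27 inhibitor of cyclin-dependent kinases, had 12.56, 12.42, 12.85 and 12.70 at E7, 13.61, 13.55 and 13.55 at E10, 13.49, 13.54 and 13.45 at E14 and 12.63, 12.15, 12.14 and 12.64 at E18. It was high at the 2 middle ages, with a rise of 0.94 ± 0.12 at E10 (SE, adjusted p = 9.699e-05) and a fall of 1.18 ± 0.12 at E18 against E10. MYCN, a growth-promoting transcription factor gene, fell at each step (12.34, 11.74, 10.89 and 9.89). CCND2, a G1 cyclin, fell by 0.54 and BTG1, an antiproliferative gene, rose by 0.42 at E18 against E7. Of the STMN1 relatives, STMN2 and STMN4 had no call at E10 against E7 (-0.21 ± 0.37 and -0.26 ± 0.38).

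Markers of other cells were measured beside these genes. Of 18 genes of retinal progenitors and the neural retina, 11 lay above the limit for dim signal. Their summed signal was 10946 to 14773 at E7, 13332 to 14111 at E10, 13699 to 13871 at E14 and 9684 to 16478 at E18. GLUL, a glial enzyme gene, made up 49.9% to 77.7% of that sum. SOX2, SIX6, ATOH7 and HES5 lay below the limit on average over all arrays, while SIX3 (7.65, 8.50, 8.87 and 8.73), NOTCH1 (10.63, 10.46, 10.21 and 8.98), FABP7 (8.12, 6.16, 5.84 and 5.78) and the neuronal gene ELAVL4 (10.51, 9.54, 8.62 and 7.40) lay above it. At E10 against E7, 2 of the 11 fell and 1 rose, where 8.08% and 8.78% of all genes did so. For E18 against E7, 4 fell and 2 rose, where 26.7% and 21.6% of all genes did so. The summed signal of 12 endothelial genes, 7 of them above the limit, was 2383 to 2682 at E7, 5909 to 6435 at E10, 5749 to 6194 at E14 and 4917 to 5551 at E18. CDH5, KDR, TEK and TIE1 were among those below it. CLDN5, which the RPE also expresses, was the brightest of the 12, with age means of 10.48, 12.19, 12.18 and 11.82. PECAM1 had 8.41, 8.92, 8.19 and 8.57. At E10 against E7, 0 of the 7 fell and 1 rose, where 8.08% and 8.78% of all genes did so. The summed signal of 18 stromal genes, 12 of them above the limit, was 8725 to 9054 at E7 and 13560 to 14847 at E10. It was 10842 to 11715 at E14 and 8056 to 11328 at E18. For 8 erythroid genes, 6 of them above the limit, it was 1035 to 7538 at E7, 865 to 1177 at E10, 12320 to 12917 at E14 and 1523 to 47953 at E18. HBA1, the brightest of them by age mean at each age, had age means of 10.11, 8.48, 13.11 and 12.31. The globin genes HBZ (8.18, 6.47, 6.65 and 5.52) and HBE (9.07, 7.24, 8.27 and 7.85) had their highest age mean at E7. All others of the erythroid genes had it at E14 or E18. For 8 photoreceptor genes, 5 of them above the limit, the summed signal was 526 to 729 at E7 and 572 to 655 at E10. It was 909 to 1194 at E14 and 1711 to 2544 at E18. For 8 leukocyte genes, 2 of them above the limit, it was 3737 to 4756 at E7 and 6288 to 8354 at E10. It was 7405 to 8483 at E14 and 8089 to 9187 at E18. CSF1R was the brightest of these, with age means of 11.88, 12.73, 12.85 and 12.92. The part of these cells in the changes of the mitosis and spindle genes was not tested.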

How the data were processed

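Total RNA of RPE from 4 embryonic ages was measured on 14 arrays. The authors deposited 1 linear intensity per probe set, already summarised, and each array's mean after trimming 2% at each end was 500.1; the summarising software and the scaling are not given in the sources used here. Of the other deposited files, 9 instrument settings files served only to tell arrays apart. Their presence follows no stated batch.

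Control probe sets (96) were removed, and log2(intensity + 16) was quantile normalised, because the arrays' medians differed 1.74-fold. Probe sets were then ranked by their mean over all arrays, and the dimmest 40% were dropped. limma 3.58.1 in R 4.3.3 fitted the 4 ages (lmFit, eBayes with trend), with Benjamini-Hochberg adjustment over 23063 probe sets, and gave every adjusted p printed here. A gene was represented by its probe set with the highest mean, named through the platform table, which gave 1 symbol to 27178 probe sets and several to 177. Figures were drawn with matplotlib 3.10.9. The tests were checked on simulated data.

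The mitosis and spindle genes and all other lists were chosen with earlier results of these data known. Every member was eligible to be named, and from each wider list the 4 genes with the smallest F-test p. Alternatives covered the added constant, the normalisation, the filter, the probe set rule, array weights, the arrays' instrument files, a replicate block and leaving out each array. No sequence is shown, since none was used here.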

Additional observations from a re-analysis of the deposited data

Results flagged for a closer look

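At E7, 1 array lay far from the other 3 in CDC20 and in KIF23, and in both it was replicate 2. For CDC20 it had a log2 signal of 9.10, with the nearest E7 array at 8.60 and the farthest at 8.51, so that the gap took 0.854 of the whole range. For KIF23 it had 8.89, with the others between 8.21 and 8.28, a gap of 0.889 of the range. Both exceed Dixon's 95% critical value for 4 arrays. Of 62 groups of 4 arrays examined 2 were picked out, and chance picks out about 1 in 20. Without E7 replicate 2, CDC20 differed by -2.82 at E10 against E7 (limma adjusted p = 0.001343) and by -3.26 at E18 against E7, and KIF23 by -1.95 (limma adjusted p = 0.000714) and -1.70, all still called.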

How the results depend on the processing

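Over 30 alternatives no gene's called change reversed its sign, and 4328 gene results kept their side of the threshold while 155 lost and 38 gained a call. The count of falls at E10 against E7 ran from 19 of 31 genes within the arrays with an instrument file to 29 of 32 with a constant of 64. Of its 26 calls, 1 of them (NUSAP1) not tested with a constant of 1, 17 were made under every alternative that tested the gene. For E18 against E7 this held for 14 of 25 calls, for E18 against E10 for 4 of 9, for E18 against E14 for 2 of 5 and for E14 against E10 for 1 of 2. Dim signal limits these results: 13 of the 31 genes had a lowest age mean under the limit, where the constant added before the log matters most for the size. The cause of the other shifts below was not tested.

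The median difference at E10 against E7 was -1.95 with a constant of 1 and -1.36 with 64, and that at E18 against E7 was -1.44 with 64. On the deposited scale, with no quantile normalisation, the median was -0.19 for E14 against E10 and -0.11 for E18 against E10, while the median of all probe sets shifted by -0.201 for E18 against E7 and by -0.161 for E18 against E10. With each array centred on its median, all probe sets shifted by 0.155 for E14 against E10 and by -0.109 for E18 against E14.

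For E14 against E10, 0 genes rose on the deposited scale, with the ages compared alone and at an adjusted p under 0.01. In that comparison 2 genes fell with a constant of 64, with the ages compared alone, with the instrument file as a term and within the arrays with a file, and 3 fell with array weights and without the 4 arrays that stood apart. For E18 against E14, 1 gene fell with the ages compared alone, with the file as a term, within the arrays with a file, without the 4 arrays and at an adjusted p under 0.01, and 1 rose within the arrays with a file and without the 4 arrays. For E18 against E7, 15 fell within the arrays with a file, and 1 rose in the mean over probe sets and in the arrays without a file. For E18 against E10, 3 fell with the ages compared alone, with the file as a term and at an adjusted p under 0.01. Within the arrays with a file 18 genes changed over the ages. The share of all genes that changed within these arrays was not counted. The count there therefore does not set the mitosis and spindle genes apart from other genes. Shares of all genes were counted for only some alternatives and are given with the main comparisons.

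When each array was left out in turn, falls numbered 21 to 27 at E10 against E7, 1 to 2 at E14 against E10, 1 to 3 at E18 against E14, 22 to 25 at E18 against E7 and 3 to 6 at E18 against E10. Rises numbered 0 to 1 at E14 against E10, 2 to 3 at E18 against E14 and 2 to 4 at E18 against E10. The median difference ran from -1.86 to -1.59 at E10 against E7, from -0.06 to 0.06 at E14 against E10 and from -0.14 to 0.02 at E18 against E10, and 24 to 28 genes changed over the ages.

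Replicate numbers did not visibly pair the arrays. Among 19 pairs with the same number, deviations from the age means correlated at -0.229 to 0.154, against -0.281 to 0.407 among 54 other pairs. Deviations from the mean of a few arrays are not independent, so these values cannot exclude a pairing. With a replicate block, 25 genes fell at E10 against E7 (median -1.97) and 25 at E18 against E7.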
